A study of Homo sapiens with 16 samples.

Results

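The comparison described here is the response of wild-type HCT116 cells, a human colorectal carcinoma line, to siRNAs against the long noncoding RNA NORAD. It rests on 4 of the 16 libraries deposited for the study, chosen by their labels: 2 from wild-type cells that received NORAD siRNA and 2 from wild-type cells that received the non-targeting control pool. Both groups were transfected at 50 nM siRNA and harvested after 48 h, and poly(A) RNA was read as strand-specific libraries. A further 4 libraries came from SAM68 knockout HCT116 cells under the same pair of siRNA treatments. They serve here to estimate the spread between libraries and to test whether the NORAD response differed between genotypes. The labels do not say whether the knockout line is 1 clone, nor whether libraries with the same treatment were grown as separate cultures. The p-values below therefore reflect the spread between these particular libraries, which may be technical.

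NORAD is an abundant, mostly cytoplasmic RNA that is best known for binding the Pumilio proteins. Pumilio proteins bind a short motif in the 3′ UTR of mRNAs and lower the stability and translation of these mRNAs through the CCR4-NOT deadenylase. In the usual model NORAD keeps part of the Pumilio pool away from its mRNA targets, so that loss of NORAD is followed by lower levels of targets, many of which act in mitosis, replication and DNA repair. SAM68, encoded by KHDRBS1, is an RNA-binding protein of the STAR family that also binds NORAD, and the series asks whether NORAD needs it to act on Pumilio.

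The Pumilio motif was searched as the letters TGTANATA, on the transcript strand, in the 5339 bases of the annotated NORAD transcript (GENCODE release 29). It was found 15 times, or 2.81 times per kb, against 1 copy of the scrambled letters TATGNATA. Starts of neighbouring copies lay between 9 and 1006 bases apart, with a median of 258. Sites 2, 3, 5 and 11, counted from the 5′ end, are printed because together they show the 3 forms of the motif present and the flanks they sit in. Each has 8 bases on either side, and the motif is in capitals.
NORAD site 2, TGTATATA form: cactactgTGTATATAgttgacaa
NORAD site 3, TGTAAATA form: tcacatttTGTAAATAcctttttg
NORAD site 5, TGTACATA form: gtatatagTGTACATAaaggacag
NORAD site 11, TGTATATA form: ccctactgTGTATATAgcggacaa

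NORAD fell in both libraries of the NORAD siRNA group. The control libraries held 249.2 and 232.0 CPM (reads of a gene per fixed total of reads, after TMM scaling). The NORAD siRNA libraries held 50.2 and 47.4 CPM, far below both controls. The means were 240.6 ± 12.1 and 48.8 ± 1.99 CPM (SD, n = 2), which leaves 20.3% of the control level. The log2 fold change was -2.30 ± 0.16 (SE; 95% interval -2.66 to -1.95), with an adjusted p of 0.00099 in edgeR's quasi-likelihood test with Benjamini-Hochberg adjustment. Leaving out any 1 of the 4 wild-type libraries gave values from -2.35 to -2.25. In TPM, which corrects for transcript length, NORAD was at 77.4 and 77.0 in the control libraries, above PUM2 at 38.95 and 50.9. Under NORAD siRNA it was at 15.5 and 15.3 TPM, below PUM2 at 39.2 and 43.4.

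In the knockout libraries NORAD had a log2 fold change of -1.85, with an edgeR adjusted p of 0.00609. The difference between the genotypes was 0.45 ± 0.21 (SE; 95% interval -0.03 to 0.93, edgeR adjusted p = 0.642). The interval includes 0, so a weaker fall of NORAD in the knockout was not resolved.

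**Figure D1:**
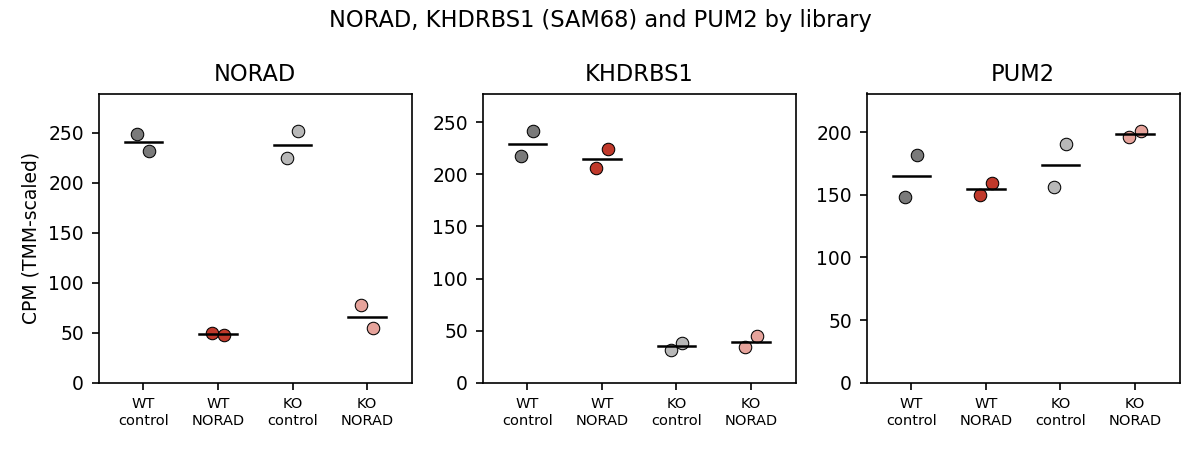
CPM of NORAD, KHDRBS1 and PUM2 in each library of wild-type (WT) and SAM68 knockout (KO) HCT116 cells under control or NORAD siRNA. Points are single libraries and bars are group means over 2 libraries. The wild-type NORAD points sit at 249.2 and 232.0 CPM for control and 50.2 and 47.4 CPM for NORAD siRNA, while the wild-type points of the other genes overlap.

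NORAD was the only gene called in wild-type cells, 1 of 13764 tested genes (0.00727%), at an edgeR adjusted p below 0.05. Unadjusted p-values were below 0.05 for 181 genes (1.32%), 88 higher (0.639%) and 93 lower (0.676%). DESeq2 called 5 genes (0.0363%), and edgeR called 33 without a filter on low counts. The 4 control and NORAD siRNA libraries did not overlap for 1795 genes that were higher (13%) and 1920 that were lower (13.9%). The median 95% interval of a gene reached 0.34 log2 units to either side of its fold change, or 1.27-fold. Among genes at 10 to 100 CPM, the interval stayed within a 1.5-fold change in either direction for 88.5% of genes, and among genes at 100 CPM or more for 95.4%. A fitted change of at least 2-fold in either direction was seen for 154 genes, of which 13 had at least 5 CPM in the higher group. With 2 libraries a side, 0.333 is the smallest two-sided p that an exact permutation test allows.

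**Figure D2:**
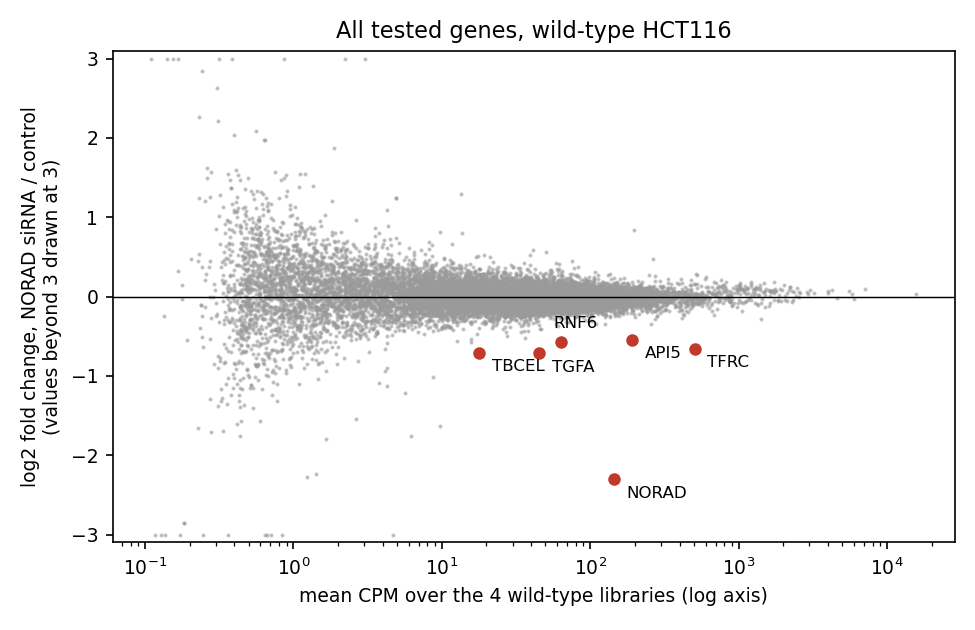
Log2 fold change of NORAD siRNA over control in wild-type HCT116 against the mean CPM over the 4 libraries, on a log axis, for all tested genes. Red points are NORAD and the 5 genes beside it with a small p that are discussed in the text. NORAD lies at -2.30, and the other labelled genes lie between -0.71 and -0.54. Of all tested genes, 66 were at least 2-fold lower, and values beyond the range shown are drawn at its edge.

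The mRNAs of the proteins that act with NORAD were measured, and none was called. KHDRBS1 had 217.2 and 241.3 CPM in the control libraries, against 206.3 and 224.1 CPM with NORAD siRNA. These groups overlap, with a log2 fold change of -0.09 (95% interval -0.41 to 0.22). KHDRBS1 was at 31.6 to 44.5 CPM in the 4 knockout libraries, so reads of its mRNA remained there. PUM2, a Pumilio protein, was at 148.3 and 181.5 CPM against 149.8 and 159.6 CPM, with a log2 fold change of -0.09 (95% interval -0.38 to 0.20). The list of Pumilio proteins, NORAD protein partners and STAR family members had 12 tested genes. Of these, 3 had a positive and 9 a negative fold change, against 50.7% positive among all tested genes, and the median was -0.026 against 0.003 for all genes. RBMX, an RNA-binding protein that also binds NORAD, had a log2 fold change of -0.02 ± 0.10 (SE).

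CCR4-NOT and PAN deadenylases shorten the poly(A) tails of mRNAs. Their list also held PARN, TOB1, TOB2 and the poly(A)-binding proteins PABPC1 and PABPC4, while PAN2 had no row of its own. The list had 17 tested genes and no call. Of these, 14 had a negative fold change, 4 did not overlap on the lower side (13.9% of all tested genes) and 1 on the higher side (13% of all). Their median was -0.064, and it ran from -0.185 to 0.025 when 1 wild-type library was left out. The smallest p belonged to PABPC4, a poly(A)-binding protein, at 288.4 and 303.4 against 270.5 and 259.4 CPM (log2 fold change -0.16 ± 0.10). The 13 genes of the small RNA silencing machinery had a median of -0.021, and neither direction held a gene whose groups did not overlap.

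Among genes other than NORAD, the smallest p-values in the lower direction belonged to 9 single genes at 5 CPM or more and to rows of near-identical copies, chosen by rank. DESeq2 called TGFA, TFRC and API5 among the single genes (DESeq2 adjusted p of 0.00775, 0.0185 and 0.0226), while edgeR's adjusted p was 0.999 for each. DESeq2 also called the row of an RGPD5 copy (DESeq2 adjusted p = 8.97e-05, edgeR adjusted p = 0.999). TGFA, a ligand of the epidermal growth factor receptor, was at 55.1 and 57.4 CPM with the control pool and 35.7 and 33.1 CPM with NORAD siRNA. Its log2 fold change was -0.71 ± 0.13 (SE), and no left-out library brought it outside -0.77 to -0.66. TFRC, the transferrin receptor that takes up iron, was at 564.5 and 674.4 against 397.5 and 389.2 CPM (-0.65 ± 0.14). API5, an inhibitor of apoptosis, was at 218.0 and 238.1 against 157.7 and 155.5 CPM (-0.54 ± 0.11). In each of these genes both NORAD siRNA libraries lay below both control libraries.

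The further genes of this group were lower by a similar size. RNF6, a ubiquitin ligase, was at 77.6 and 75.6 against 53.7 and 49.1 CPM (log2 fold change -0.58 ± 0.14). TBCEL, a relative of the tubulin cofactor TBCE, was at 22.2 and 22.2 against 12.3 and 14.9 CPM (-0.71 ± 0.15). FGF2, a fibroblast growth factor, was at 14.5 and 15.6 against 9.71 and 10.6 CPM (-0.57 ± 0.14). TPCN1, an endolysosomal cation channel, was at 33.0 and 31.9 against 23.7 and 22.3 CPM (-0.50 ± 0.12). KCTD2 (-0.40 ± 0.11) and CLIP2, a microtubule-binding protein (-0.52 ± 0.15), were lower as well. None of them was called by edgeR in the fit reported, which has a filter on low counts (adjusted p = 0.999). Without that filter edgeR called RNF6 (adjusted p = 0.0271) and TBCEL (adjusted p = 0.0122). Both were also called with a block for the replicate number in the wild-type libraries alone (edgeR adjusted p of 0.0126 and 0.0346).

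The knockout cells had their own control libraries, and their fold changes did not enter the choice of these genes. Their spread did, through the joint fit, so genes with a low spread in the knockout were favoured. Of the 9 single genes, 8 had a negative fold change there, and 7 did not overlap on the lower side, against 21.4% of all tested genes. These 7 were TGFA (-0.59), TFRC (-0.43), API5 (-0.18), RNF6 (-0.40), TPCN1 (-0.81), KCTD2 (-0.53) and CLIP2 (-0.66 on the log2 scale). TBCEL, at -0.19, overlapped between the groups. FGF2 had a log2 fold change of 0.02 in the knockout, and its difference from wild type was 0.59 ± 0.19 (edgeR adjusted p = 0.642). With the rows of copies counted, the ranked set had 11 rows beside NORAD. Of the 11, 8 were lower and 3 higher in the knockout, with 7 not overlapping on the lower side. On the higher side 2 did not overlap (22% of all tested genes), a copy of RGPD5 (0.59) and a row without a symbol (2.44). No gene passed the test of the difference between genotypes among all 13764 tested (0%), though 1048 had an unadjusted p below 0.05 (7.61%).

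**Figure D3:**
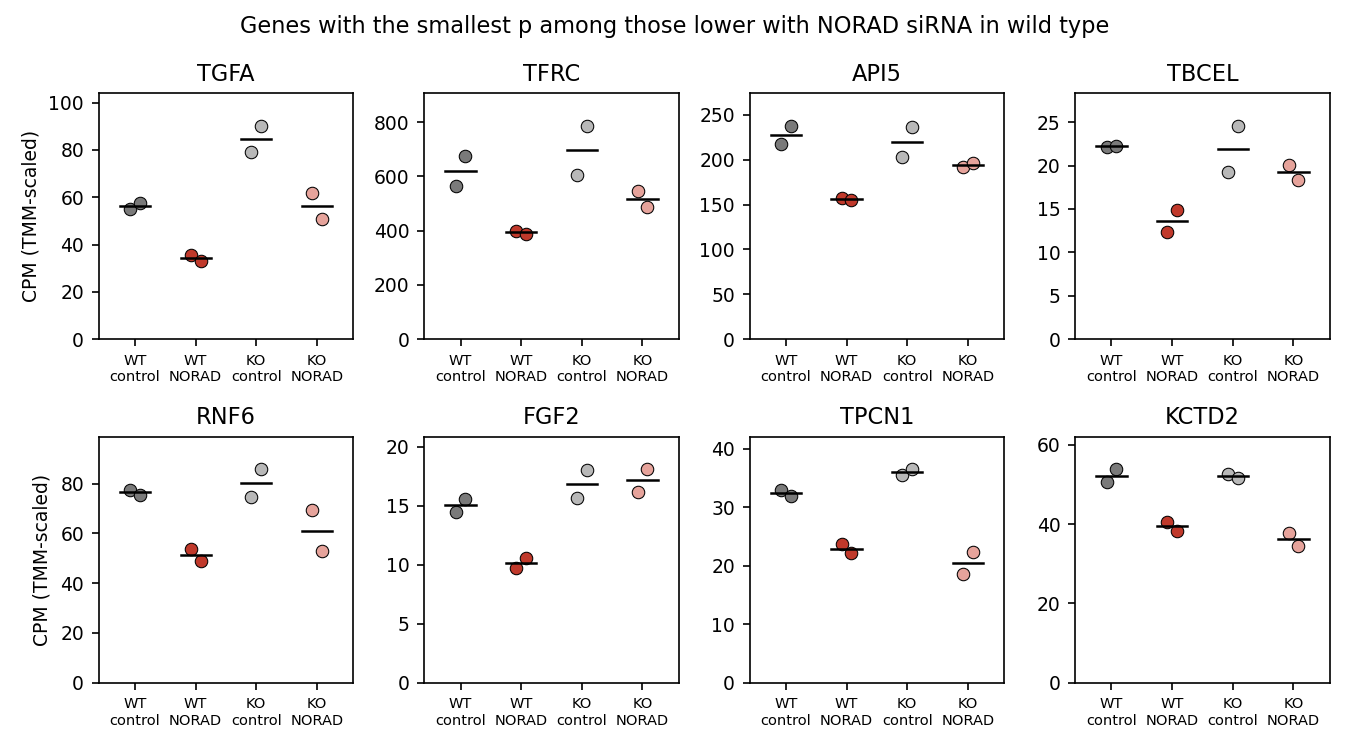
CPM by library for the 8 single genes with the smallest p among those lower under NORAD siRNA in wild-type cells. Points are libraries and bars are means over 2 libraries. In wild-type cells the NORAD siRNA points of each gene lie below both control points, and for TGFA, TFRC, API5, RNF6, TPCN1 and KCTD2 the knockout libraries show the same order.

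In the higher direction, none of the 12 genes with the smallest p was called by DESeq2 or by edgeR in the fit reported. With a block for the replicate number, edgeR called RGPD8 and GTF2IP1 (adjusted p of 0.0323 and 0.0466). The block in the wild-type libraries alone called ZBTB22 as well. Of the 12 genes, 6 are rows of near-identical copies or pseudogenes, such as RGPD8 and GTF2IP1, where shared reads make the split between copies uncertain. This set was picked out after the values were seen. The other 6 were CD163L1, a scavenger receptor, the circadian transcription factor DBP, the muscle enolase ENO3, the junction protein ESAM, the methionine salvage enzyme MRI1 and NRBP2. CD163L1 was at 9.96 and 10.5 CPM with the control pool and 14.3 and 13.1 CPM with NORAD siRNA (log2 fold change 0.42 ± 0.14). DBP was at 4.56 and 2.79 against 6.35 and 6.07 CPM (0.74 ± 0.27), with the control libraries further apart than those under NORAD siRNA. In the knockout, 1 of these 6 had a positive fold change and none was clear of its controls on the higher side, against 22% of all tested genes.

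Reported Pumilio targets had 18 tested genes, and none was called. Of these, 12 had a negative and 6 a positive fold change, with a median of -0.047. This median was 0.027 with an offset for transcript GC content in each library, so its sign depended on that setting. The groups did not overlap for 4 genes on the lower side (13.9% of all tested genes) and for 0 on the higher side (13% of all). DEK, a chromatin protein, was at 168.9 and 174.3 CPM with the control pool and 138.1 and 159.8 CPM with NORAD siRNA (log2 fold change -0.20, 95% interval -0.45 to 0.04). ESCO2, the acetyltransferase that establishes cohesion, was at 41.2 and 44.9 against 38.1 and 39.8 CPM (-0.14, 95% interval -0.39 to 0.11). E2F3, a transcription factor for S phase entry, had a log2 fold change of 0.03 ± 0.12. CDKN1B, the cell cycle inhibitor p27, pointed the other way with 0.19 ± 0.15, and its first control library was level with both NORAD siRNA libraries. The median of the list ran from -0.124 to 0.013 as 1 wild-type library was left out.

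In the knockout the median of these targets was 0.240, with 17 of 18 positive, against 6956 of 13764 over all tested genes. Their median transcript GC content was 41.1%. That value lies near the upper end of the lowest of 5 equal groups by transcript GC (30.2 to 41.3%), whose knockout median was 0.243. The next group (41.3 to 46.2%) had a knockout median of 0.118, and the one after it (46.2 to 52.3%) of -0.003. Whether the targets differed from other genes of similar GC content was not tested. The edgeR test of the difference between genotypes had an unadjusted p below 0.05 for 5 of the 18, all more positive in the knockout. Such an unadjusted p was found for 7.61% of all tested genes. The adjusted p was below 0.05 for 0 of the 18. DEK differed by 0.55 ± 0.16 and ESCO2 by 0.65 ± 0.16 (edgeR adjusted p = 0.642 for both).

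Across the transcriptome, tested genes were grouped by the number of TGTANATA copies in their longest annotated 3′ UTR, on the transcript strand. At least 1 copy was present in 29.4% of the 12238 UTRs, and at least 1 copy of the scrambled TATGNATA in 18%. The median log2 fold change was 0.018 for 8645 genes with no copy, -0.034 for 2312 with 1, -0.062 for 836 with 2 and -0.078 for 445 with 3 or more. Of the genes with 3 or more copies, 329 had a negative fold change and 116 a positive one, and none was called. The 5 genes with the most copies at 10 CPM or more had log2 fold changes between -0.23 (LNPEP, an aminopeptidase with 17 copies) and 0.09 (PIGT, a GPI transamidase subunit with 8 copies). All their intervals included 0.

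The scrambled letters gave medians of 0.012, -0.055, -0.070 and -0.068 for 0, 1, 2 and 3 or more copies. Genes with 2 or more TATGNATA copies had a median of -0.069, the same as genes with 2 or more TGTANATA copies. Such UTRs were longer and richer in A and T than the rest: the median UTR length was 3854 bases for 2 or more motif copies and 1295 for none, and the median GC content 37.1% and 47.4%. With an offset for transcript GC content in each library, the medians were 0.012, 0.000, -0.003 and -0.010 for 0, 1, 2 and 3 or more copies. When UTRs were split into 5 equal groups by GC content, the median for 2 or more motif copies was below that for none in each group, at -0.100 against -0.058 in the group of lowest GC and 0.022 against 0.077 in that of highest. For the scrambled letters this held in the 3 groups of lowest GC and not in the upper ones, where few genes had 2 or more copies. The part that UTR length plays in these medians was not tested.

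Fold changes moved with GC content over all tested genes. Among 5 equal groups by transcript GC, the median ran from -0.091 in the lowest to 0.084 in the highest, and the Spearman correlation across 13261 genes, which share their libraries, was 0.400. In the knockout it was -0.689, with medians from 0.243 to -0.226. The control libraries of wild-type cells themselves differed along GC: replicate 2 minus replicate 1 had a median of 0.128 in the lowest GC group and -0.325 in the highest. At the same ends, NORAD siRNA replicate 1 had medians of -0.082 and -0.020 against control replicate 1, and of -0.219 and 0.304 against control replicate 2. NORAD siRNA replicate 2 had medians of 0.043 and -0.136 against control replicate 1, and of -0.086 and 0.203 against control replicate 2. The trend thus ran upward against control replicate 2 in both, and downward for NORAD siRNA replicate 2 against control replicate 1.

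**Figure D4:**
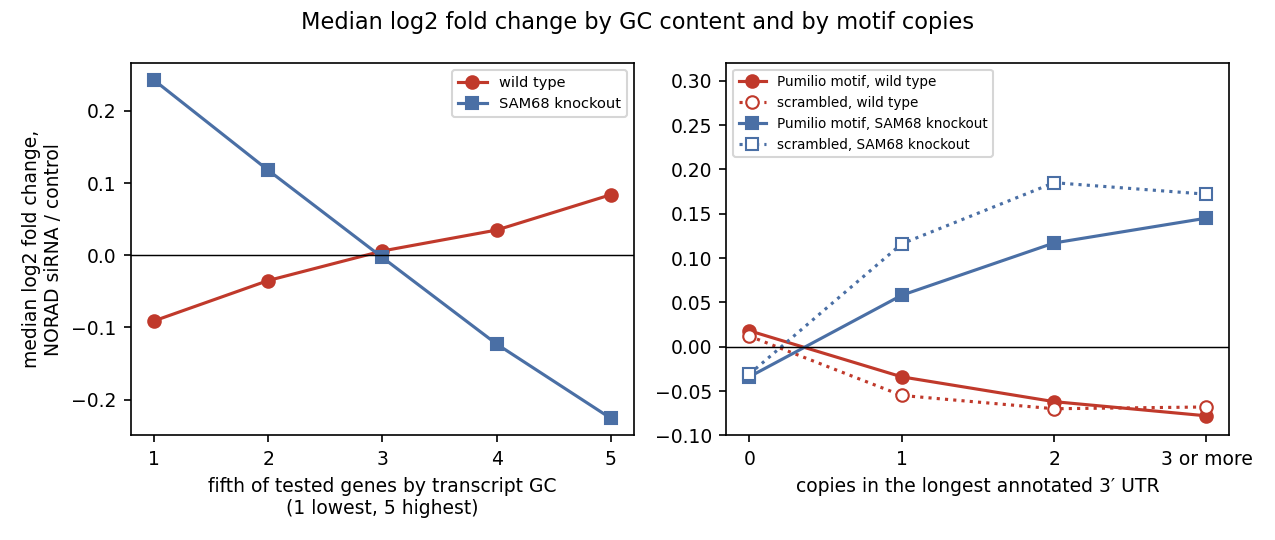
Left, median log2 fold change of NORAD siRNA over control in 5 equal groups of genes by transcript GC content, for wild-type and knockout cells. Right, the same median by copies of the Pumilio motif (filled) or its scrambled form (open) in the 3′ UTR. Wild-type medians run from -0.091 to 0.084 with GC and from 0.018 to -0.078 with motif copies, and the scrambled form runs close to the motif in wild-type cells.

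Genes of hypoxia and glycolysis had the highest median of the 28 lists, although no member was called in the fit described. Of 31 tested genes, 30 had a positive fold change and 24 had both NORAD siRNA libraries above both control libraries, against 13% of all tested genes, while 0 were lower without overlap. The median was 0.159 (all genes: 0.003), and it stayed between 0.137 and 0.227 when 1 wild-type library was left out and was 0.154 with the GC offset. The members below outside ADM, ENO2, PFKP and VEGFA were named after their values were seen, to follow the pathway.

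Among the genes named for glucose entry and the early steps, log2 fold changes ranged from 0.13 to 0.59. The glucose transporter SLC2A1 was at 127.3 and 113.1 CPM with the control pool and 129.1 and 133.4 CPM with NORAD siRNA, with a log2 fold change of 0.13 ± 0.12. The phosphofructokinase PFKP was at 334.2 and 289.8 against 361.3 and 342.4 CPM (0.17 ± 0.11). PFKFB4, which sets the level of the activator of phosphofructokinase, was at 35.4 and 28.9 against 41.6 and 50.7 CPM (0.52 ± 0.35). The aldolase ALDOC was at 35.8 and 30.3 against 51.1 and 48.6 CPM, the highest fold change of the list at 0.59 ± 0.44. The later enzymes were very abundant and closer to 0. PGK1 had a log2 fold change of 0.12, PKM 0.12 and LDHA 0.10, while the enolase ENO2 was at 55.5 and 49.2 against 65.8 and 67.1 CPM (0.34 ± 0.22).

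Genes outside glycolysis that hypoxia-inducible factors also drive were on the same side. The peptide hormone ADM was at 36.8 and 30.5 CPM with the control pool and 45.6 and 43.1 CPM with NORAD siRNA. Its log2 fold change of 0.40 ± 0.16 had an unadjusted p of 0.0353 and an edgeR adjusted p of 0.999. BNIP3, a mitophagy receptor, had 0.30 ± 0.31, and NDRG1 0.36 ± 0.29. VEGFA, the vascular growth factor, was the exception with 76.0 and 72.6 against 75.6 and 70.8 CPM (-0.02 ± 0.11). In the knockout the list had a median of 0.053 with 17 of 31 positive, against 6956 of 13764 over all tested genes. The edgeR test of the difference between genotypes had an unadjusted p below 0.05 for 0 of 31, against 7.61% of all tested genes.

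**Figure D5:**
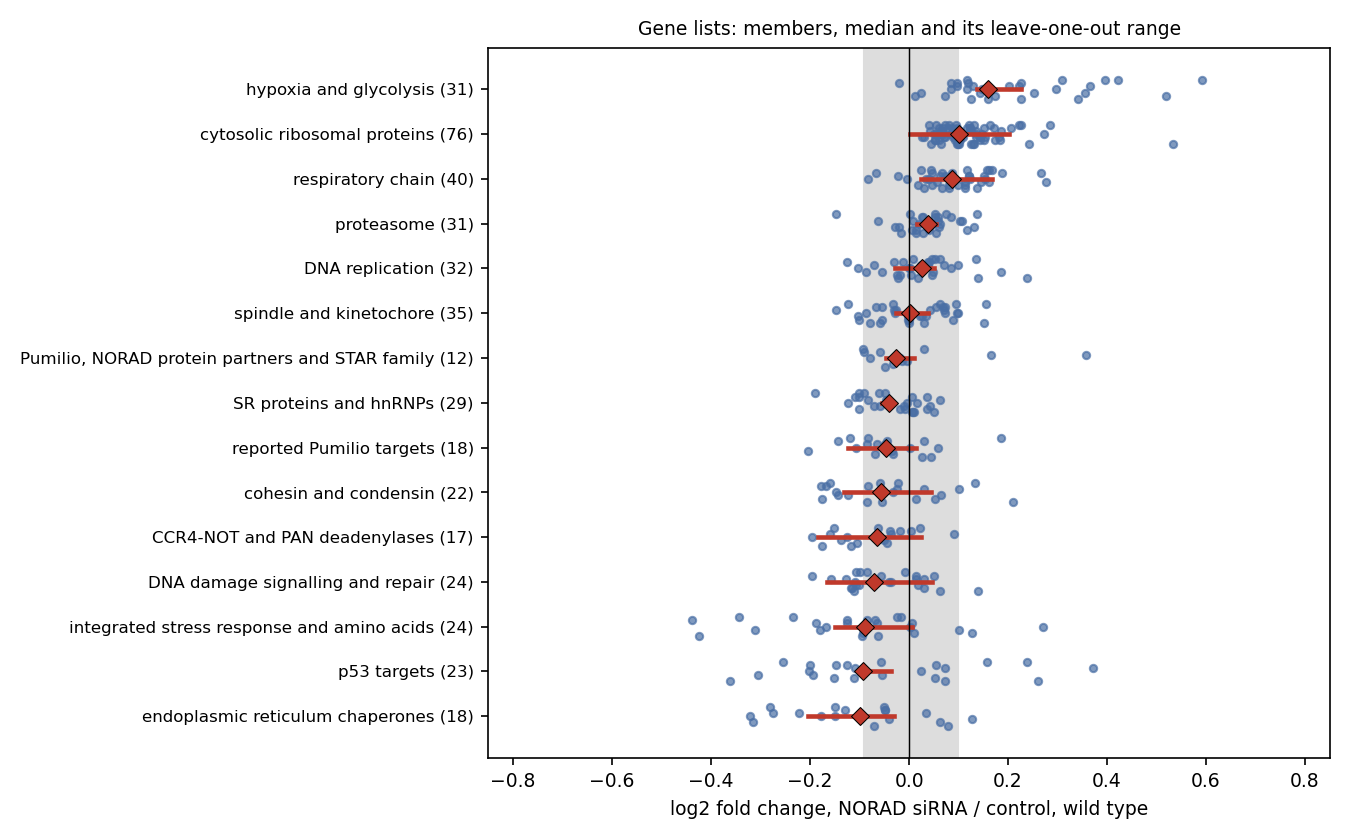
Log2 fold change of NORAD siRNA over control in wild-type HCT116 for members of 15 gene lists, with the number tested in brackets. Blue points are genes, diamonds are list medians, red bars span the medians obtained when each wild-type library in turn was left out, and the grey band is the middle 50% of all tested genes. The hypoxia and glycolysis list lies highest, at 0.159, and its bar stays clear of 0.

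Cytosolic ribosomal proteins, the protein part of the ribosome, all had a positive fold change, 76 of 76, with a median of 0.101. Only 9 of them did not overlap between groups, against 13% of all tested genes, and the median ran from 0.002 to 0.202 when 1 wild-type library was left out. The respiratory chain had 36 of 40 positive and a median of 0.086 (0.024 to 0.167), with 11 genes not overlapping on the higher side (13% of all tested genes). ATP5F1B, the catalytic subunit of ATP synthase, had 0.11 ± 0.09. The proteasome had 26 of 31 positive at a median of 0.039 (0.017 to 0.055). RPL36, a protein of the large subunit, was at 554.5 and 395.2 CPM in the control libraries and at 658.4 and 489.8 CPM under NORAD siRNA, so that the groups overlap.

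Targets of p53, the tumour suppressor that is wild type in this line, leaned lower. Of 23 tested genes, 14 had a negative and 9 a positive fold change, 8 did not overlap on the lower side (13.9% of all tested genes) and 5 on the higher (13% of all), and the median was -0.094 (-0.100 to -0.037 on leaving out 1 library). CDKN1A, the cell cycle inhibitor p21, was at 160.5 and 134.5 CPM with the control pool and 131.8 and 115.6 CPM with NORAD siRNA (log2 fold change -0.25 ± 0.12). TIGAR, a regulator of glycolysis, was at 37.2 and 41.5 against 31.0 and 32.7 CPM (-0.30 ± 0.12). TP53INP1, an autophagy and apoptosis factor, was at 10.7 and 9.28 against 8.07 and 7.51 CPM (-0.36 ± 0.15). SESN1, a sestrin that inhibits mTORC1, was on the other side with 0.24 ± 0.12. The unadjusted p was 0.0269 for TIGAR and 0.0359 for TP53INP1, and no member was called by edgeR (adjusted p = 0.999).

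Endoplasmic reticulum chaperones had 14 of 18 negative and a median of -0.100 (-0.205 to -0.031). HYOU1, an oxygen-regulated chaperone, was at 426.3 and 481.9 against 382.0 and 368.1 CPM (log2 fold change -0.28 ± 0.11), with both NORAD siRNA libraries below both controls. DNAJC3, which inhibits the kinase PERK, had -0.32 ± 0.17, CANX -0.18 ± 0.11, and MANF, a secreted stress factor, 0.06 ± 0.10. The integrated stress response and amino acid list had 18 of 24 negative and a median of -0.089, which went from -0.149 to 0.005 as 1 library was left out. In it ASNS, asparagine synthetase, was at 444.4 and 484.4 against 384.9 and 404.6 CPM (-0.23 ± 0.11). SLC7A11, the cystine transporter, was at 128.5 and 151.9 against 105.9 and 115.0 CPM (-0.34 ± 0.18), and DDIT4, an mTORC1 inhibitor, pointed higher at 0.27 ± 0.20.

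Genes of the processes attributed to NORAD in the cell cycle stayed near 0. Spindle and kinetochore genes split into 18 positive and 17 negative of 35, with a median of 0.001. KIF2C, a microtubule depolymerase of the centromere, was at 166.0 and 174.5 against 187.2 and 190.9 CPM (log2 fold change 0.15 ± 0.09), and NUF2, a kinetochore subunit, had -0.15 ± 0.17. Cohesin and condensin had 15 of 22 negative and a median of -0.056 (-0.131 to 0.044), with SMC4 at -0.17 ± 0.15 and HDAC8 at 0.21 ± 0.13. DNA replication had 22 of 32 positive and a median of 0.026 (-0.029 to 0.050), with the replication protein RPA2 at 0.13 ± 0.09. DNA damage signalling and repair had 16 of 24 negative and a median of -0.071 (-0.166 to 0.047), with the checkpoint kinases ATR at -0.20 ± 0.15 and CHEK1 at -0.13 ± 0.11. None of these genes was called. In each of these 4 lists leaving out 1 wild-type library moved the median across 0, from -0.026 to 0.038 for the spindle list. Their medians with the GC offset were 0.041 (spindle), 0.020 (cohesin), 0.045 (replication) and -0.004 (repair).

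Splicing factors of the SR and hnRNP families were close to 0 but leaned one way. Of 29 tested genes 19 were negative, 10 did not overlap on the lower side (13.9% of all tested genes) and 0 on the higher (13% of all), with a median of -0.041 that stayed between -0.055 and -0.037. With the GC offset it was 0.010. HNRNPR had -0.12 ± 0.10 and HNRNPA3 -0.11 ± 0.09, and with the GC offset these were 0.01 for HNRNPR and 0.01 for HNRNPA3. PTBP3, a polypyrimidine tract binding protein, had -0.19 ± 0.14.

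The other lists held no call. Immediate early genes had 19 of 31 negative at a median of -0.046, with 10 not overlapping on the lower side (13.9% of all tested genes) and 1 on the higher (13% of all). Interferon-stimulated genes had 11 of 21 positive at a median of 0.061, with IFIT1 at 0.31 ± 0.30. Cholesterol synthesis had a median of 0.038, heat shock genes of -0.005, histones of 0.066, NF-kB and inflammatory genes of -0.009 and Wnt targets of -0.025. TCF7, a transcription factor of the Wnt pathway, was at 24.0 and 25.8 against 19.4 and 20.7 CPM (log2 fold change -0.31 ± 0.11, edgeR adjusted p = 0.999). Small nucleolar RNA host genes had a median of 0.032. Other abundant long noncoding RNAs had a median of -0.088 and 11 of 18 negative. H19, an imprinted RNA, was at 4.52 and 3.46 against 2.82 and 2.06 CPM (-0.70 ± 0.27).

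Genes beside NORAD on its chromosome, the 5 tested genes on each side in the reference order, were not called. Of the 10, 6 had a positive fold change, and the median was 0.042. The groups did not overlap for 2 on the higher side (13% of all tested genes) and 0 on the lower (13.9% of all). The largest fold change was that of CNBD2, the nearest gene on one side, at 0.52 ± 0.43 (SE). Its level was low, at 0.56 and 0.55 CPM with the control pool and 0.86 and 0.72 CPM with NORAD siRNA. RBM39, a splicing factor, was at 191.9 and 218.5 CPM with the control pool and 196.5 and 227.1 CPM with NORAD siRNA (log2 fold change 0.05, 95% interval -0.22 to 0.31). The nearest gene on the other side, EPB41L1, had 0.10 with an interval from -0.14 to 0.33. ROMO1 had control libraries at 51.4 and 28.7 CPM, so its 0.23 ± 0.29 is loosely determined.

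The wild-type libraries held between 16203278 and 25589861 expected counts. The summed level of 20 colon epithelial markers was 4517 to 5054 TPM in the control and 4704 to 4906 TPM in the NORAD siRNA libraries. Of these markers, 7 stayed under 1 TPM in every wild-type library, and CEACAM6, VIL1, CDX1 and TFF3 were at 0. Mesenchymal and bone markers summed to 9.19 and 9.76 against 9.73 and 9.65 TPM, and blood, endothelial and liver markers to 9.96 and 13.71 against 11.61 and 10.31 TPM.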

How the data were processed

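RNA-seq of poly(A) RNA from HCT116 cells was analysed, with 1 deposited file per library. Per the file headers, the authors' files hold RSEM gene estimates over RefSeq transcripts. Expected counts (estimated read counts, deposited without normalization) were rounded for the tests. The TPM values deposited by the authors served to compare levels between genes. The effective length, a further column deposited by the authors, was read but entered no result. Per the submitters' processing notes, the tools were STAR and RSEM and the build was hg19. Tool versions and the strand setting of the counting were not given in the sources used here. Reads of a gene and of its antisense, overlapping or near-identical partner may therefore be mixed.

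Of 27434 rows, 25321 carried an NCBI gene number that gave a symbol. Names, gene order and 3′ UTRs came from RefSeq (GRCh38.p14) and GENCODE release 29, another build than the files, so no coordinates are given. The 8 HCT116 libraries (4 groups of 2) were fitted together, filtered with filterByExpr and scaled by TMM. They were tested with edgeR's quasi-likelihood test (edgeR 4.0.16, limma 3.58.1, R 4.3.3), called at a Benjamini-Hochberg adjusted p below 0.05 over 13764 genes. The biological coefficient of variation was 11.3%. The main alternative was DESeq2 1.42.0. Replicates differed by more than sampling noise (chi-square per gene 17.4 and 7.83 in the wild-type control and NORAD siRNA groups).

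Named genes were NORAD, KHDRBS1 and PUM2 (1 further gene is not reported here), every gene called by edgeR or DESeq2, the 12 smallest p-values per direction with at least 5 CPM and no overlap between groups, for each list up to 3 members with the smallest p in the direction of its median and 1 against it, up to 5 genes with the most motif copies, and 10 neighbours of NORAD. The genes named beyond this rule were chosen after their values were seen. The members and the 28 lists were chosen with earlier results of these data known. List medians were compared with no test.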

Additional observations from a re-analysis of the deposited data

How the results depend on the processing

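NORAD stayed called with the same direction under all 12 alternatives tried in wild-type cells. The number of genes called there, 1 in the fit reported, was 5 with DESeq2, 33 without a filter on low counts and 2 with only the 4 wild-type libraries, and 1 to 2 when 1 wild-type library was left out. The replicate numbers are shared between groups, but the labels do not say that they pair libraries. Deviations of same-numbered libraries correlated at 0.59 in wild type and 0.376 in the knockout. With a replicate block, 13 genes were called, and 16 with the block in the wild-type libraries alone. TGFA, TFRC and API5 were called under both of these fits, and RNF6, TBCEL and ALDOC under the latter (edgeR adjusted p of 0.0126, 0.0346 and 0.0202). For the difference between genotypes, the count of 0 was 2 with DESeq2, 5 with the replicate block, and 0 to 1 when 1 library was left out.

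Of 799 pairs of a named gene and an alternative, 784 kept their direction. With the GC offset the log2 fold change was 0.074 for RBMX, 0.008 for HNRNPR and 0.005 for HNRNPA3. Leaving out 1 wild-type library gave ranges across 0 for PUM2 (-0.231 to 0.062), RBMX (-0.050 to 0.009), E2F3 (-0.069 to 0.135), CDKN1B (-0.002 to 0.413), LNPEP (-0.449 to 0.015), VEGFA (-0.070 to 0.023), NUF2 (-0.362 to 0.040), RBM39 (-0.064 to 0.146) and ROMO1 (-0.124 to 0.715). The cause was not tested. Under the GC offset, list medians changed sign for 6 of 28 lists. List medians changed sign for 10 of 28 lists without control replicate 2, 5 without NORAD siRNA replicate 1, 4 without control replicate 1 and 4 without NORAD siRNA replicate 2. They moved from the reported median by more than the replicate spread (the root of the summed variances, within the control and NORAD siRNA groups, of the list's median deviation per library) for DNA replication (-0.029 to 0.050), p53 targets (-0.100 to -0.037), cholesterol synthesis (-0.046 to 0.056), NF-kB genes (-0.047 to -0.002) and, with the GC offset, SR proteins and hnRNPs (0.010). With 2 libraries a group and depths of 16203278 to 25589861 counts, changes under 1.27-fold are within the interval of a typical gene.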

Other observations

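CXCL8, a neutrophil chemokine, was at 4.33 and 7.40 CPM with the control pool and 2.70 and 2.57 CPM with NORAD siRNA in wild-type cells (log2 fold change -1.13 ± 0.60, SE; edgeR adjusted p = 0.999). Without the filter on low counts edgeR called CXCL8 in wild-type cells. In the knockout its log2 fold change was -1.11 ± 0.51. The control libraries differed from each other in both genotypes. In the knockout they were at 9.29 and 30.6 CPM, against 13.2 and 5.76 CPM with NORAD siRNA, so that the groups overlap there. KRT23, a keratin of the colon epithelium, was at 10.5 and 10.4 CPM in wild-type controls and at 13.2 and 13.6 CPM under NORAD siRNA (0.36 ± 0.18), with no overlap. The colon epithelial markers as a list were mixed, with 8 positive and 5 negative of 13 tested. Their median was 0.078, and it ran from -0.049 to 0.230 when 1 wild-type library was left out. Of the 13, 3 did not overlap on the higher side (13% of all tested genes) and 0 on the lower (13.9% of all).

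Rows of the near-identical RGPD genes went in opposite directions. RGPD8 was at 9.13 and 6.43 against 16.7 and 21.8 CPM (log2 fold change 1.29 ± 0.35), and a further copy of RGPD5 at 11.0 and 18.4 against 3.21 and 6.38 CPM (-1.63). DESeq2 called the RGPD5 copy in wild-type cells (DESeq2 adjusted p = 8.97e-05), while its edgeR adjusted p was 0.999. In the knockout RGPD8 had -0.92 ± 0.36 and the RGPD5 copy 0.59 ± 0.28. The difference between genotypes was called for RGPD8 by DESeq2 and by edgeR with the replicate block, but not in the fit reported. The split of reads between these copies is uncertain.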
